A study of Rattus norvegicus with 4 samples.

Results

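The genes described here are the rat fibroblast growth factor (Fgf) family and the genes built around it: the ligands, their receptors, the extracellular Fgf binding proteins, and the Sprouty and Spred inhibitors. They were taken by name from a peak list of histone H3 trimethylated at lysine 27 (H3K27me3), as all genes whose name begins with Fgf, Fgfr, Fgfbp, Spry or Spred followed by a digit. The rule found 34 of the 10647 genes that the list names, with 21 ligands, 4 receptors, 2 binding proteins, 6 Sprouty or Spred genes and Fgfr1op, a centrosomal gene that matches by its name alone. Of 37 protein-coding genes of this kind in the rat gene table, Fgf7, Fgfr1op2 and Spred3 were named by no peak. The ligands as counted here include 4 intracellular factors, Fgf11 to Fgf14, which are not secreted. The rats were male Sprague Dawley animals at postnatal day 42, and the chromatin came from the sciatic nerve on the side that had a sham operation (an incision of the skin), taken 1 day after the nerve of the opposite limb was cut. The 4 libraries of this side were 2 immunoprecipitated with an H3K27me3 antibody after digestion with micrococcal nuclease and 2 made from the input chromatin. All of them came from animals with a cut nerve on the other side, and the sources used here do not say whether nerves of several animals were pooled. The transected side was not analysed here.

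Apart from the intracellular factors, Fgf ligands are secreted proteins that bind receptor tyrosine kinases of the Fgfr family together with heparan sulfate or a Klotho protein. The receptors signal mainly through Ras and the kinase ERK. Sprouty and Spred proteins are made or engaged downstream of the same receptors and damp that signal, so the family holds both the input of the pathway and its brakes. H3K27me3 is laid down by the Polycomb complex PRC2 and is typical of developmental genes kept silent in a differentiated tissue. In peripheral nerve, Schwann cells and fibroblasts respond to Fgf signals, and Fgf5 is known to be induced by nerve injury.

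The authors deposited a combined list of H3K27me3 peaks, each with a position on the rn5 rat assembly, a score and the signed distance of its centre from the transcription start site (TSS) of the closest gene. The list held 129550 peaks on 21 chromosomes, covering 67.7 Mb, with a median score of 4.54 and an upper quartile of 9.9. The score is the authors' own and has no stated scale. It is used here only to describe and rank peaks within the list. Each peak has a single value for both H3K27me3 libraries, which leaves no replicate spread to report, and no difference between genes was tested against replicate error. Scores below 10 all fell, within the rounding of 0.005, on a grid with a step of 0.206, and the 95% counting intervals printed with scores assume that a step is 1 sequenced tag and hold counting error alone. Library depths are unknown. In whole nerve, a mark present in a larger share of cells and a stronger mark in fewer cells cannot be told apart.

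The promoter sequences of 7 genes are shown for the contrast between family members with H3K27me3 within 1000 bp of the start and members without it. They are RefSeq promoters on the GRCr8 assembly, 250 bases before to 50 bases after the annotated start, with every CpG (the letters CG, which read the same on both strands) in capitals. RefSeq gave a promoter for 31 of the 37 family genes, and the GRCr8 start need not be the start that the authors' rn5 annotation used. By that rn5 annotation, the TSS of Fgf5 lay inside a peak, and those of Fgf8 and Fgfr2 lay in gaps between peaks. The first 3, Fgf8 (chr1:254539556-254539855, minus strand), Fgf5 (chr14:11650194-11650493, minus strand) and Fgfr2 (chr1:194280865-194281164, minus strand), belong to genes with H3K27me3 within reach of the TSS, and they hold 36, 23 and 48 CpG.
Fgf8: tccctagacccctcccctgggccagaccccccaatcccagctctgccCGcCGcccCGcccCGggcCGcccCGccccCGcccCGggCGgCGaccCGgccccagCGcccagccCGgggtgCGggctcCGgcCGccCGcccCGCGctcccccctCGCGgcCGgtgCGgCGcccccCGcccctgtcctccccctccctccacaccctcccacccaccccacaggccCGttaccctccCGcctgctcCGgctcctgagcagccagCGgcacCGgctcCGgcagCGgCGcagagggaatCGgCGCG
Fgf5: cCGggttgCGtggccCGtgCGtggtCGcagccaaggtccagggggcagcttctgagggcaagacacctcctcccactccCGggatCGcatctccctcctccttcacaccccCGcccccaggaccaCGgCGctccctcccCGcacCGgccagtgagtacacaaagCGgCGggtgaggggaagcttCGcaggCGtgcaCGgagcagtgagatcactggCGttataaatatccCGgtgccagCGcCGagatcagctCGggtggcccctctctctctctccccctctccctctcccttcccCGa
Fgfr2: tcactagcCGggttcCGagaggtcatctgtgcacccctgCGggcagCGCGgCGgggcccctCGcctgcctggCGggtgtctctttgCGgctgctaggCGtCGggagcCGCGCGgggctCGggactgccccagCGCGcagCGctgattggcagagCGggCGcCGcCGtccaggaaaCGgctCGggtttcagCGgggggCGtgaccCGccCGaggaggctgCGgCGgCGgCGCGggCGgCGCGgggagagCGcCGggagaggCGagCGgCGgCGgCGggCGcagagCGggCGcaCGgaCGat
The next 4 belong to genes without a promoter peak, and 3 of them are as dense in CpG: Fgf18 (chr10:18240833-18241132, minus strand) with 48, Spry2 (chr15:89111877-89112176, minus strand, the first of 2 promoters listed) with 38, and Spred1 (chr3:124436980-124437279, plus strand) with 31. Fgfbp1 (chr14:71318633-71318932, plus strand) holds 1 CpG, the fewest of the family.
Fgf18: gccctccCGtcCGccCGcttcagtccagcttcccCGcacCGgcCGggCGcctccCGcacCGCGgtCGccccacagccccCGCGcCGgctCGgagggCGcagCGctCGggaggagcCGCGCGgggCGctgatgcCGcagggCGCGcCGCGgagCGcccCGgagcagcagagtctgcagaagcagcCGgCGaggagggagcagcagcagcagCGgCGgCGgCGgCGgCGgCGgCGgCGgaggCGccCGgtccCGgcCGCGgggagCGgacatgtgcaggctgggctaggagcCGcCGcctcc
Spry2: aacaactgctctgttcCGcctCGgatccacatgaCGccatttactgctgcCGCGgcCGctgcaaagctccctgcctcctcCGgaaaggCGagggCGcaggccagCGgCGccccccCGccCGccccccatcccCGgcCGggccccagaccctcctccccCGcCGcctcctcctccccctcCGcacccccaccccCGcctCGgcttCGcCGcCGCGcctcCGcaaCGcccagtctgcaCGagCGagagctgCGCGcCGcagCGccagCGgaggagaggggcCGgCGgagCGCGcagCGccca
Spred1: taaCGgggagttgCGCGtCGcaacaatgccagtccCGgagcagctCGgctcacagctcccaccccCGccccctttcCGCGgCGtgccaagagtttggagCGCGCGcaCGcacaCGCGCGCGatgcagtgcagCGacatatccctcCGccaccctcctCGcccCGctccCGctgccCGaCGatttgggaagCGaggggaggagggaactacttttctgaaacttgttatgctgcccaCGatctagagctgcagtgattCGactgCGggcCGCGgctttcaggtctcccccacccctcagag
Fgfbp1: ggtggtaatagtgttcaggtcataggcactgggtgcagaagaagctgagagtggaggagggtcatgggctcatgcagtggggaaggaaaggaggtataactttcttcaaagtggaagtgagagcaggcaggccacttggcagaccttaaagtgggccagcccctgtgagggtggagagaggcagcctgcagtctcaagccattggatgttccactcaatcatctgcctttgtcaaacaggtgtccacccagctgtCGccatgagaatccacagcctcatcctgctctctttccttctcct

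H3K27me3 reached to within 1000 bp of the start of 17 of 21 Fgf ligand genes, 3 of 4 receptor genes and 2 of the 6 Sprouty and Spred genes. The ligand count includes 3 of the 4 intracellular factors. A promoter peak is a peak that names the gene and reaches to within 1000 bp of its TSS. Such a peak was present at 23 of the 34 genes (67.6%), against 38.4% of all genes that a peak names. With the stricter rule that the peak must contain the TSS, 11 of the 34 genes (32.4%) kept it, against 13.8% of all named genes, with 10 ligands, 0 receptors and 0 Sprouty or Spred genes. With a peak centred in the authors' promoter-TSS class, 8 of the 34 genes (23.5%) had one, against 18.4%, with 5 ligands, 0 receptors and 2 Sprouty or Spred genes. Counted over the gene table at a reach of 1000 bp, it was present at 23 of 37 family genes (62.2%), against 17.2% of protein-coding genes. A promoter peak of 5000 bp or more, the width of a broad Polycomb domain, was present at 5 of the 34 genes (14.7%), against 5.33% of all genes that a peak names. Of the remaining genes, 1 of 2 binding proteins had a promoter peak and Fgfr1op had none. All 5 broad promoter peaks belonged to ligands.

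The medians of the family's promoter peaks, in width and in score, lay above those of all genes. The median width of a gene's widest promoter peak was 2764 bp in the family, against 1341 bp over the 4088 genes with a promoter peak. The median of the highest promoter score was 100 in the family, against 40.6 over those genes. Of the 23 family genes, 19 lay above the median score of all genes with a promoter peak and 11 lay above its upper quartile of 124.4. Score followed width closely, so the score per kb set the family less apart, with a median of 34.8 per kb (20.6 to 63.1), against 30.0 per kb over all genes with a promoter peak. A small group stood at the other end: Fgf14, Fgf21 and Fgf22 had promoter scores under 10, a level seen in 27.3% of all genes with a promoter peak.

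**Figure D1:**
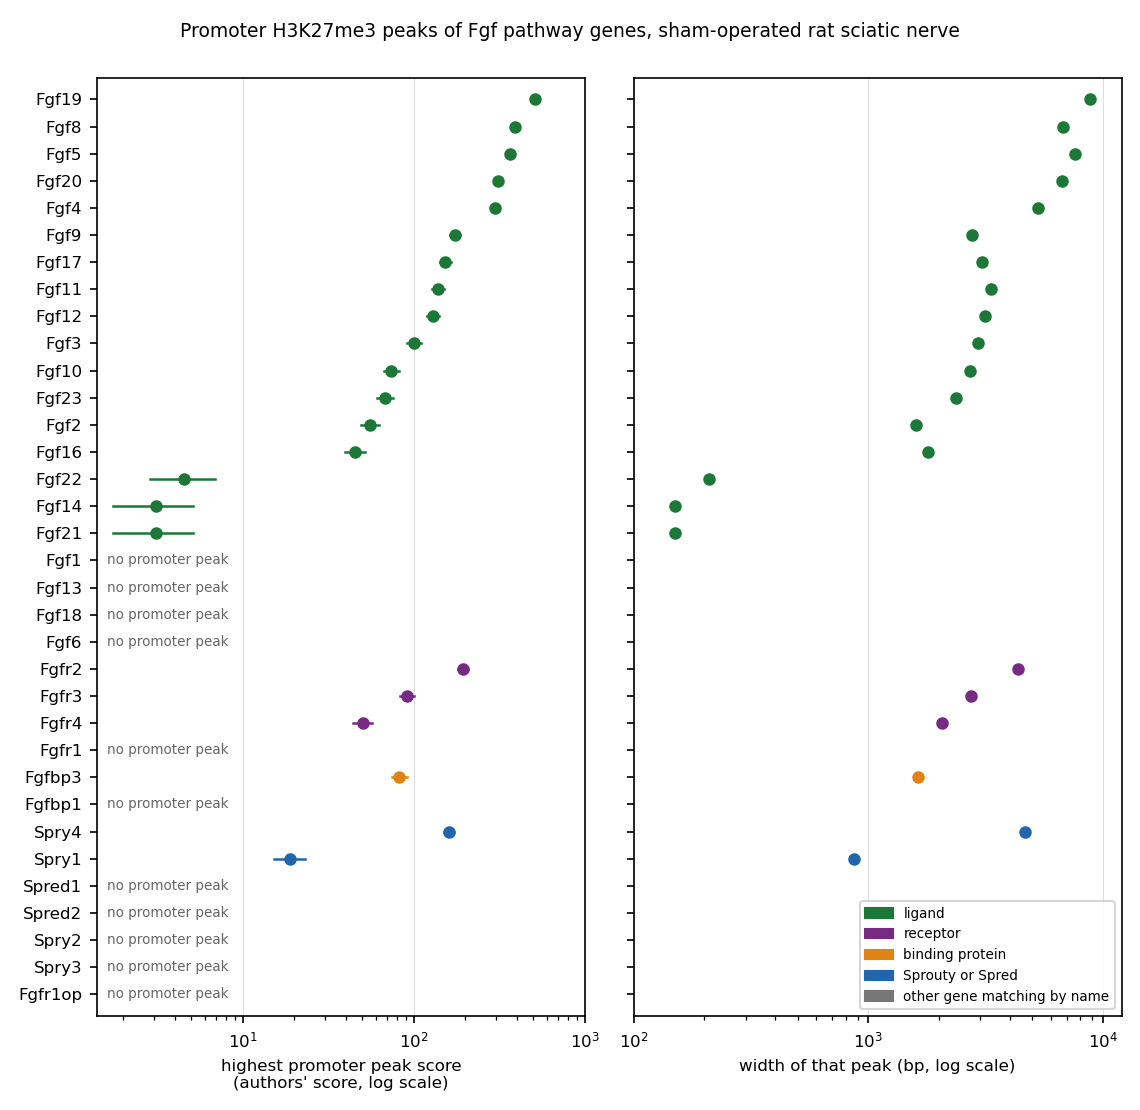
Highest promoter peak score (left, log axis) and width of that peak in bp (right, log axis) for the 34 genes, grouped by role. Points are the deposited values and horizontal bars are 95% counting intervals. Ligands run from 3.09 to 511.3 in score, and 11 genes have no promoter peak.

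**Figure D2:**
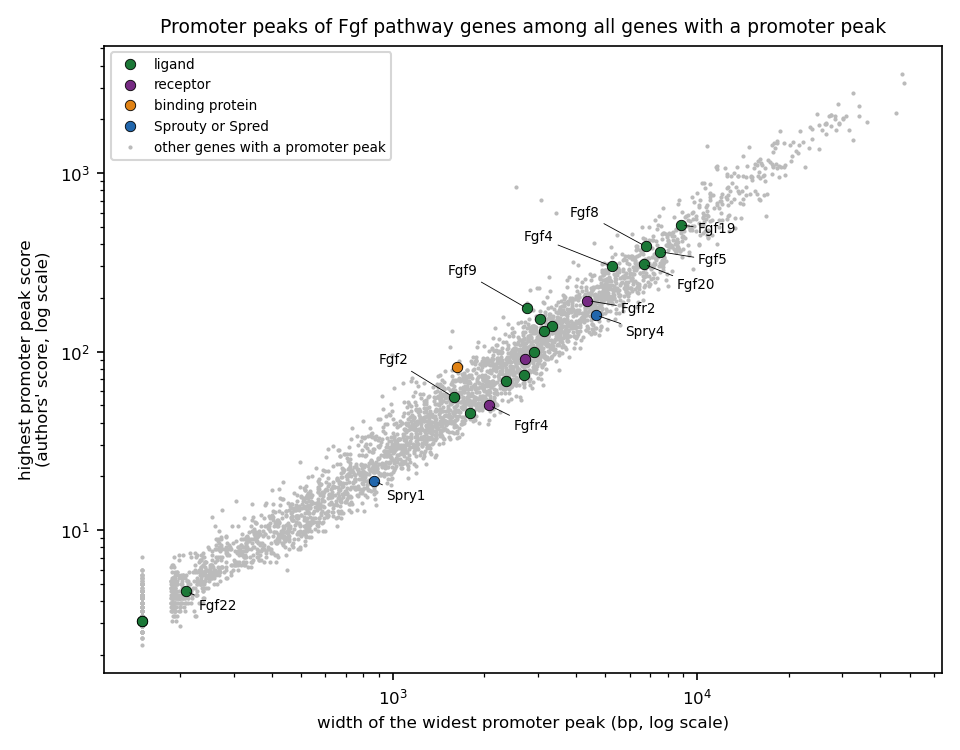
Width of the widest promoter peak (bp, log axis) against the highest promoter peak score (log axis) for the 23 family genes and, in grey, the other genes with a promoter peak. The family follows the same diagonal as the other genes, and 19 of its 23 genes lie above the overall median score of 40.6.

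Among the ligands, the 5 highest promoter peaks belonged to Fgf19, Fgf8, Fgf5, Fgf20 and Fgf4. Fgf19, the gut hormone that restrains bile acid synthesis and the counterpart of mouse Fgf15, had the top score of 511.3 (counting interval 491 to 532) over 8829 bp (chromosome 1, 224925203 to 224934032, centred in intron 2). Fgf8, the organiser of the midbrain boundary and the limb bud, had 388.4 (371 to 406) over 6772 bp (chromosome 1, 272922489 to 272929261, centred in intron 3). Its TSS lay in a short gap, and a second promoter peak of 245.3 over 3461 bp covered the upstream side. The intervals of Fgf19 and Fgf8 did not overlap, and those of Fgf8 and Fgf5 did. The Fgf19 peak was also the wider, and per kb the scores of Fgf19 and Fgf8 were close, at 57.9 and 57.4.

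Fgf20, which acts in the inner ear and kidney, had 309.2 (294 to 325) over 6670 bp (chromosome 16, 54854725 to 54861395, intron 1). Fgf4, a signal of the early embryo and the limb bud, had 299.7 (284 to 316) over 5261 bp (chromosome 1, 224895736 to 224900997, classed intergenic with its centre 3170 bp downstream of the TSS). A second Fgf4 peak of 63.9 over 1537 bp ended 4 bp upstream of the TSS. Counting error alone does not separate Fgf20 from Fgf4, since their intervals overlap.

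A middle group of ligands carried peaks of about 3 kb. Fgf9, a regulator of lung and testis development, had 174.3 (163 to 186) over 2764 bp (chromosome 15, 42176912 to 42179676, intron 1), the highest score per kb of the family at 63.1. It was flanked by peaks of 147.7 upstream and 115.7 downstream that did not reach the promoter. Fgf17, an Fgf8 relative that patterns the midbrain and cerebellum, had 152.4 (142 to 164) over 3054 bp (chromosome 15, 56054766 to 56057820, promoter-TSS). A larger peak of 215.8 over 5995 bp began 1182 bp downstream of its TSS and so was not counted. Fgf11 and Fgf12 belong to the intracellular Fgf homologous factors, which are not secreted and bind voltage-gated sodium channels. Fgf11 had 138.2 (128 to 149) over 3346 bp (chromosome 10, 56152688 to 56156034, promoter-TSS), and Fgf12 had 129.5 (119.6 to 140.1) over 3130 bp. Fgf3, needed for the inner ear and teeth, had 100 (91.3 to 109) over 2919 bp on the downstream side and 89.7 over 2036 bp on the upstream side of its TSS.

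Lower but still kilobase-wide peaks covered 4 more ligands. Fgf10, the mesenchymal signal for lung and limb buds, had 73.8 over 2706 bp, and a neighbouring peak of 79.4 missed the promoter reach by 21 bp. Fgf23, the bone hormone that lowers blood phosphate, had 68.1 over 2361 bp, while its highest peak, 285.7 over 7155 bp, was centred 16806 bp downstream of the TSS. Fgf2, the basic fibroblast growth factor made by many adult tissues, had 55.3 over 1589 bp with its centre 699 bp upstream. Fgf16, known for its role in the heart, had 45.2 over 1799 bp with its centre 1207 bp upstream.

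Promoter calls at the last 3 ligands rested on weak peaks. Fgf22, an organiser of presynaptic terminals, had 4.54 (2.84 to 6.87) over 209 bp and 3.71 over 150 bp, below a wider upstream peak of 36.9 over 1299 bp centred 3079 bp from the TSS. Fgf14, another sodium channel partner, had 3.09 (1.73 to 5.10) over 150 bp, the smallest width in the list, while its highest peak scored 94.5 and was centred 459024 bp upstream. Fgf21, a metabolic hormone of the liver, had a single peak of 3.09 over 150 bp. A peak of 104.8 over 3274 bp that names the neighbouring gene Fut1 began 831 bp from it. With a minimum at the median score of the list, Fgf14 and Fgf21 lost the call and Fgf22 kept it.

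The 4 ligands without a promoter peak differed in how far the mark lay. Fgf1, the acidic fibroblast growth factor, had 5 peaks, the closest 34582 bp downstream with a score of 3.51 and none above 4.33. Fgf13, a further sodium channel partner on the X chromosome, had its closest peak 30108 bp downstream at 2.89, and its highest, 26.6, was 397561 bp upstream. Fgf18, a signal for bone and cartilage growth, had 51 peaks with up to 71.6 (2290 bp, centred 19235 bp downstream), but the closest was 3863 bp upstream at 3.09 and missed the reach by 2788 bp. Fgf6, a muscle ligand, had a peak of 152.0 over 3994 bp centred 4752 bp downstream in intron 2, which missed by 1755 bp. Fgf1 and Fgf13 thus had no listed peak at the start or in its surroundings, and Fgf6 and Fgf18 were marked within the gene or close to it. A list of peaks does not show signal too weak to be called.

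By ligand subfamily, the promoter was marked in 3 of 3 members named for the Fgf7 group (Fgf3, Fgf10, Fgf22), 3 of 3 for the Fgf9 group (Fgf9, Fgf16, Fgf20) and 3 of 3 endocrine ligands (Fgf19, Fgf21, Fgf23). It was marked in 2 of 3 for the Fgf4 group (Fgf4, Fgf5 but not Fgf6), 2 of 3 for the Fgf8 group (Fgf8, Fgf17 but not Fgf18), 3 of 4 intracellular factors (all but Fgf13) and 1 of 2 for the Fgf1 group (Fgf2 but not Fgf1). The groups hold 2 to 4 genes each, so their shares were not compared. The calls at Fgf22, Fgf21 and Fgf14 were lost with a score minimum at 9.9, the upper quartile of the list. Over all genes that a peak names, 38.4% had a promoter peak.

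Fgf5, the regulator of the hair growth cycle and the family member known for its induction by nerve injury, was among the most heavily marked genes of the family. Its promoter peak scored 362.2 (345 to 379.6) over 7579 bp (chromosome 14, 12933504 to 12941083, rn5, minus strand). That peak held the TSS and was centred 1112 bp downstream in intron 1. It stood at percentile 92.5 in score and 92.8 in width of all genes with a promoter peak. With its neighbours it formed a stretch of 16731 bp with 7 peaks, 71.3% covered. The promoter peak held 14.2% of the summed score of the 58 peaks that name Fgf5, and most of the score lay upstream.

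The strongest peak that names Fgf5 scored 994 (966 to 1022) over 17026 bp and was centred 69001 bp upstream of the TSS (chromosome 14, 12998893 to 13015919). It sat in a block 40 to 80 kb upstream (12978656 to 13018177) where 12 peaks covered 86.1% of 39521 bp with a summed score of 1709.37. Between that block and the gene, 4.56% of 32768 bp was covered. The gene table places Prdm8, a histone methyltransferase relative, next to Fgf5 on this upstream side and Cfap299 on the other. No peak names Prdm8 or Cfap299, and a peak names only the nearest TSS of the authors' annotation. Whether the upstream block lies over Prdm8 cannot be read from the deposited coordinates, because the gene table is of another assembly.

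**Figure D3:**
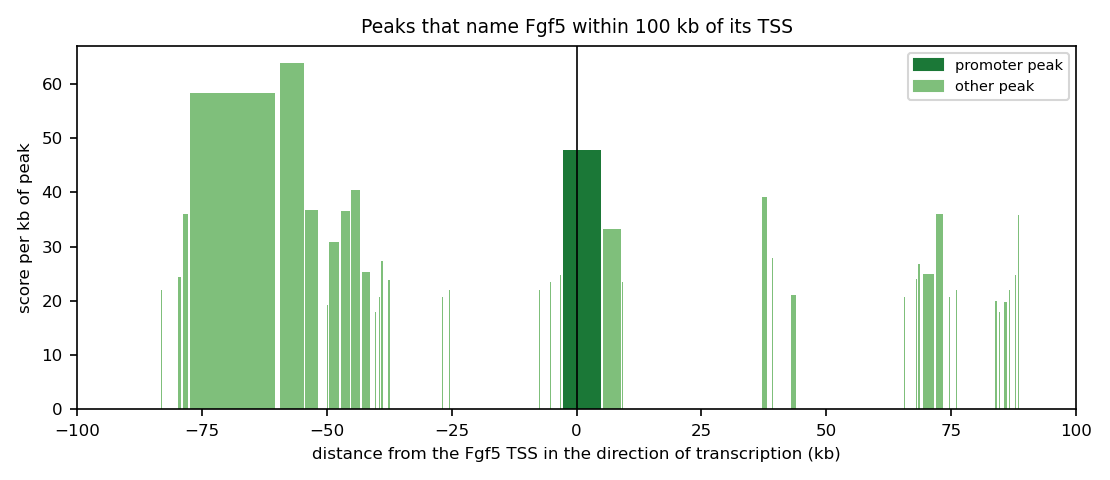
Peaks that name Fgf5 within 100 kb of its TSS, drawn to scale by position (kb in the direction of transcription) with height as score per kb of peak; dark green is the promoter peak. The block 40 to 80 kb upstream is wider than the promoter peak and holds the peak of score 994, and the stretch between them is nearly empty.

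Of the 4 receptors, all but Fgfr1 had a peak within 1000 bp of the TSS. In none of them did a peak contain the TSS or have its centre in the promoter-TSS class. Over all genes that a peak names, those 2 stricter shares were low as well, at 13.8% and 18.4%. Fgfr2, the receptor tyrosine kinase that answers Fgf7 and Fgf10 in epithelia, had the highest promoter score of a non-ligand at 193.1 (181 to 206) over 4352 bp (chromosome 1, 207726779 to 207731131, intron 1). Peaks of 156.4 over 3992 bp and 6.19 over 238 bp also reached its promoter. It was named by 110 peaks, the most in the family. Fgfr3, a brake on bone growth, had 90.8 (82.5 to 99.6) over 2724 bp, all downstream of the TSS. Fgfr4, the liver receptor for Fgf19, had 50.1 (44.0 to 56.8) over 2066 bp upstream and 3.09 downstream. Fgfr1, a receptor expressed widely in mesenchymal tissues, had no promoter peak. Its closest peak lay 13935 bp upstream at 16.1, and that was also the highest of its 7 peaks. The counting intervals of the highest peaks of the 4 receptors did not overlap. Those peaks also differed in width, from 698 bp at Fgfr1 to 4352 bp at Fgfr2.

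The binding proteins carry secreted Fgfs away from heparan sulfate. Fgfbp3 had a promoter peak of 82.1 over 1624 bp and a run of further peaks downstream, up to 80.7. Fgfbp1 had no promoter peak. The closest of its 7 peaks scored 2.89 and missed the reach by 817 bp, and its highest scored 7.84.

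Of the Sprouty and Spred inhibitors, Spry4 and Spry1 had promoter peaks, with the TSS outside them, and the others had none. Spry4 had 160.3 (149 to 172) over 4640 bp (chromosome 18, 32273267 to 32277907, intron 1) and a further promoter peak of 10.1 over 472 bp. Spry1 had 18.8 (15.1 to 23.0) over 868 bp. No listed peak reached the promoter of Spry2. The closest of its 4 peaks lay 18169 bp upstream at 16.3, beside its highest peak of 46.2 at 20644 bp upstream. Spry3 had its highest peak, 50.7 over 1684 bp, centred 4055 bp upstream, which missed by 2213 bp. Spred1, which recruits neurofibromin to restrain Ras, had 40 peaks with the closest 17759 bp upstream at 3.09 and the highest, 92.4, at 314394 bp upstream. Spred2 had 26 peaks with the closest 13699 bp downstream at 5.98 and the highest, 53.4, at 316884 bp upstream. Their 2 of 6 is a share near the 38.4% of all genes that a peak names, and so is no result about them. Fgfr1op, the centrosomal gene, had 2 peaks, the nearer 8229 bp upstream at 8.87.

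The calls nearest the limit were few. Among genes with a single promoter peak, Fgf14 and Fgf21 were inside by 361 and 412 bp. Outside, the nearest were Fgfbp1 by 817 bp, Fgf6 by 1755 bp, Spry3 by 2213 bp and Fgf18 by 2788 bp. With a reach of 5000 bp these 4 genes gained the call, which gave 27 of 34 (79.4%), against 61.9% of all genes that a peak names.

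Where the TSS sat within the mark also varied. The TSS lay inside a peak in 11 of the 23 genes (47.8%), against 35.9% of all genes with a promoter peak. It lay between peaks on both sides in 6 genes (26.1%), against 28.3% of all. In those 6 genes the nearer peak edge upstream and downstream was 133 and 176 bp away for Fgf3, 4 and 540 bp for Fgf4, 304 and 35 bp for Fgf8, 154 and 237 bp for Fgfr2, 133 and 495 bp for Fgfr4, and 555 and 507 bp for Spry4. Fgf16, Fgf22 and Spry1 had the promoter peak upstream alone (13.0%, against 17.2% of all), and Fgf14, Fgf21 and Fgfr3 had it downstream alone (13.0%, against 18.7%). All 3 receptors with a promoter peak and both Sprouty genes thus had a TSS outside the peaks themselves. Most genes with a promoter peak shared that state, since 35.9% of them had the TSS inside a peak.

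The mark lay on both sides of the TSS with near equal medians. Within 10 kb of it, in the 22 family genes with a promoter peak and a known strand, the median covered length was 3013.5 bp upstream and 3007 bp downstream. Over all such genes it was 1706 bp upstream and 1803 bp downstream. Summed over the 22 genes, 66666 bp was covered upstream and 88586 bp downstream, a ratio of 1.33, against 1.01 over all such genes. All 5 family genes with a broad promoter peak were covered more downstream, with 8644 bp against 3278 bp upstream for Fgf5, 7763 against 3461 bp for Fgf8 and 5966 against 1837 bp for Fgf4. The same was not counted over all genes with a broad promoter peak, so these 5 have no matching share beside them. More was covered downstream in 13 of 22 family genes (59.1%), against 52.0% of all. The highest promoter peak was centred downstream in 15 of 23 genes (65.2%), against 56.6% of all.

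**Figure D4:**
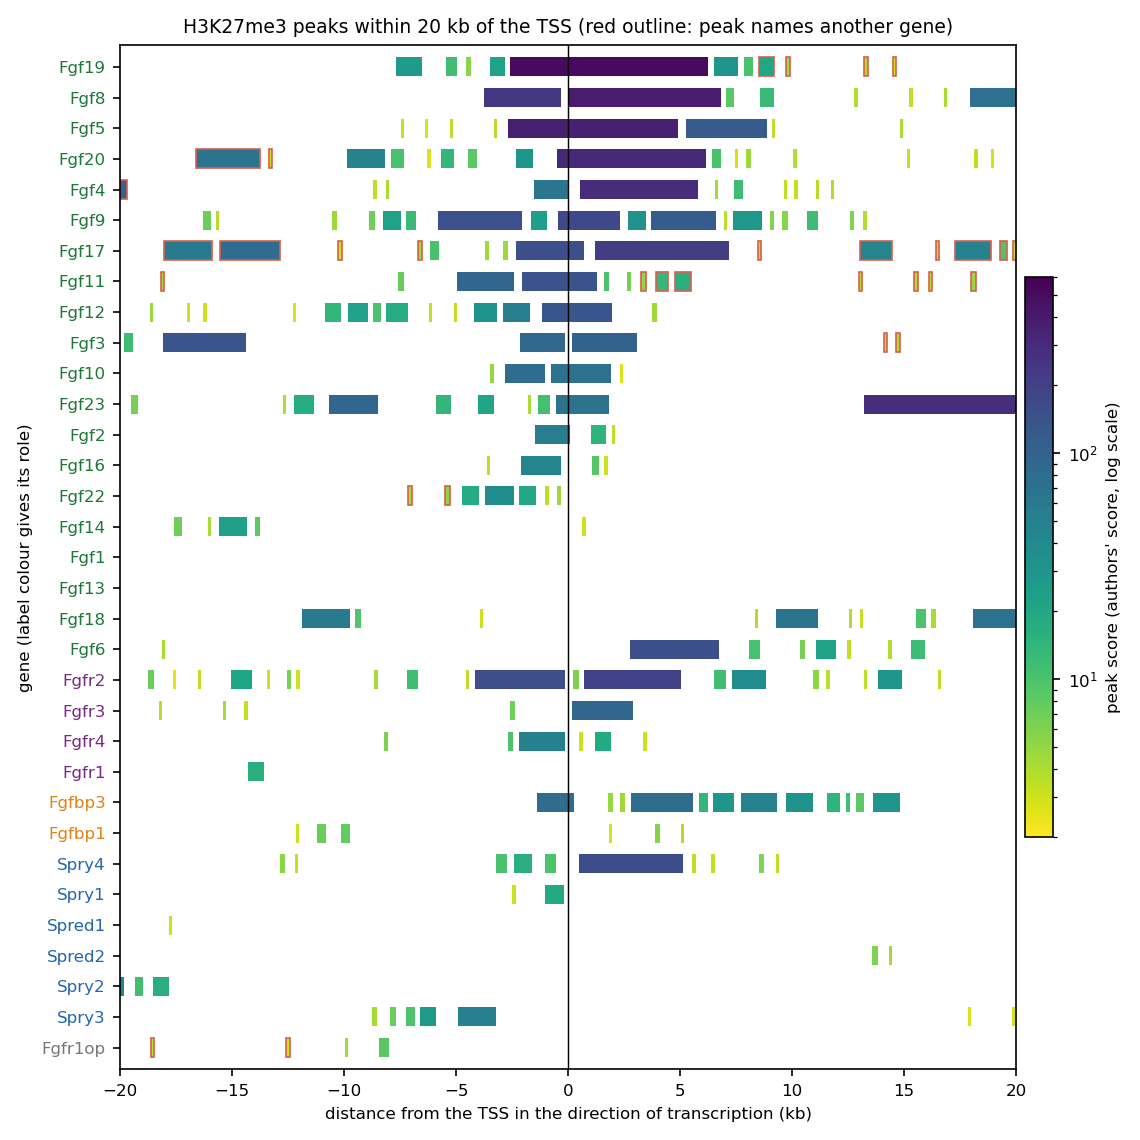
Peaks within 20 kb of the TSS of 33 family genes (Fgf21, whose strand is not resolved, is left out), by distance in the direction of transcription (kb). Colour gives the score on a log scale and a red outline marks a peak that names another gene. Fgf19, Fgf8, Fgf5, Fgf20 and Fgf4 have the widest and darkest blocks at the TSS, and Fgf1, Fgf13, Fgfr1, Spred1, Spred2 and Spry2 are empty within 10 kb of it.

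Several family genes share a chromosome region. Fgf3, Fgf4 and Fgf19 have TSSs within 55388 bp on chromosome 1, where 16 peaks covered 29.4% of the span and named no other gene. All 3 had promoter peaks, of 100, 299.7 and 511.3. Fgf23 and Fgf6 lie 58924 bp apart on chromosome 4, with 26.1% of the span covered by 24 peaks. There the promoter of Fgf23 was reached by a peak and that of Fgf6 was not. Spry4, at 160.3, and Fgf1, without a promoter peak, lie 259057 bp apart on chromosome 18. Spry1, at 18.8, and Fgf2, at 55.3, lie 321034 bp apart on chromosome 2. The authors' rn5 annotation places 20 of the 26 Spry4 peaks and all 5 Fgf1 peaks in introns of Nr3c1, the glucocorticoid receptor gene, and 2 of the 4 Fgf16 peaks in an intron of Il1rapl1. In the GRCr8 gene table those genes do not contain them, so the intron labels of these peaks are uncertain.

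Most peaks of the family lay away from promoters, as did most peaks of the whole list. The 34 genes were named by 625 peaks (0.482% of the list), which covered 388597 bp, with a median of 9.5 peaks a gene (1 to 110), against 7 over all genes. Of the 625, 33 were promoter peaks, a share that was not counted over all peaks. These 33 held 30.9% of the family's summed score, against 26.1% for all genes. A share of 76.5% of the family's peaks was centred between genes and 19.8% in introns, against 74.7% and 21.8% of all peaks. The median distance to the TSS was 43464 bp for the family, against 35622 bp for all peaks. In the family 203 peaks lay over 100 kb away, and the matching share of all peaks was not counted. In 16 of the 34 genes the highest peak of all was a promoter peak, a share that was not counted over all genes. The smallest width of 150 bp was shared by 44.5% of the family's peaks, against 45.2% of all.

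CpG counts of members with and without a promoter peak overlapped. The RefSeq promoters of 18 members with a promoter peak held a median of 17 CpG (8 to 48), and those of 10 members without held a median of 15 (1 to 48). Over all 27457 genes with a promoter given, the median was 7, 94.8% of promoters held at least 1 CpG and 26.3% held 20 or more. Of the 11 members with 20 or more CpG, 7 had a promoter peak (63.6%), against 36.1% of the 3567 such genes that a peak names. Of the 17 with fewer, 11 had a promoter peak (64.7%), against 36.9% of such genes. The printed Fgfr2 and Fgf18 promoters are an example, since both hold 48 CpG and only Fgfr2 had a promoter peak. For a gene with 2 RefSeq promoters the first listed was counted.

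The rest of the Fgf pathway was looked up by role, beside 17.2% of protein-coding genes and 38.4% of the genes that a peak names, and no difference between lists was tested. Of 27 genes that carry the signal inside the cell, 13 were named by any peak and 1 (3.70% of the 27) had a promoter peak, Plcg1 at 21.2. Frs2 and Frs3, the adaptors that dock on Fgf receptors, and Grb2 had none. Of 7 coreceptors and membrane modulators, 6 were named by a peak and 4 (57.1% of the 7) had a promoter peak, the highest at Flrt2 (287.1), Kl (94.7), the Klotho coreceptor of Fgf23, and Il17rd (26.4), an inhibitor also called Sef. Fgfrl1, Klb, the coreceptor of Fgf19 and Fgf21, and Flrt1 had none. Of 23 heparan sulfate genes, whose sugar chains hold Fgf to its receptor, 17 were named by a peak and 10 (43.5% of the 23) had a promoter peak, the highest at Gpc5 (262.0), Hs6st3 (230.2) and Sulf1 (136.8), while Gpc3, Gpc4 and Gpc6 had none.

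Of 12 target and feedback genes of ERK, all were named by a peak and 7 (58.3%) had a promoter peak, against 38.4% of all named genes, the highest at Etv4 (311.7), Dusp4 (172.2) and Etv1 (33.0). The median of the 7 was 9.28, and Dusp6, Etv5 and Fos had none. Etv4, Etv5 and Dusp6 are all standard targets of Fgf signalling, and of these Etv4 alone had a promoter peak.

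Related signalling families give a scale for the family. The Fgf receptors, all named by a peak, had a promoter peak at 3 of 4 genes, with a median width of 2724 bp and a median score of 90.8. Of 30 other receptor tyrosine kinase genes, 25 were named by a peak and 19 had a promoter peak, with medians of 2268 bp and 75.9. Pdgfra (561.3) and Flt4 (226.5) were among the highest of the other kinases, and Met, Igf1r and Insr had none. The Fgf ligands had a promoter peak at 17 of the 21 genes that a peak names, with medians of 2919 bp and 129.5 and 5 broad peaks. Of 19 Wnt ligand genes, 18 were named by a peak and 17 had a promoter peak, with medians of 5291 bp and 229.0 and 10 broad peaks. Wnt3a (763.4), Wnt1 (663.6) and Wnt16 (581.1) led the Wnt list, and Wnt2 and Wnt5b had no promoter peak. None of these differences between families was tested.

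**Figure D5:**
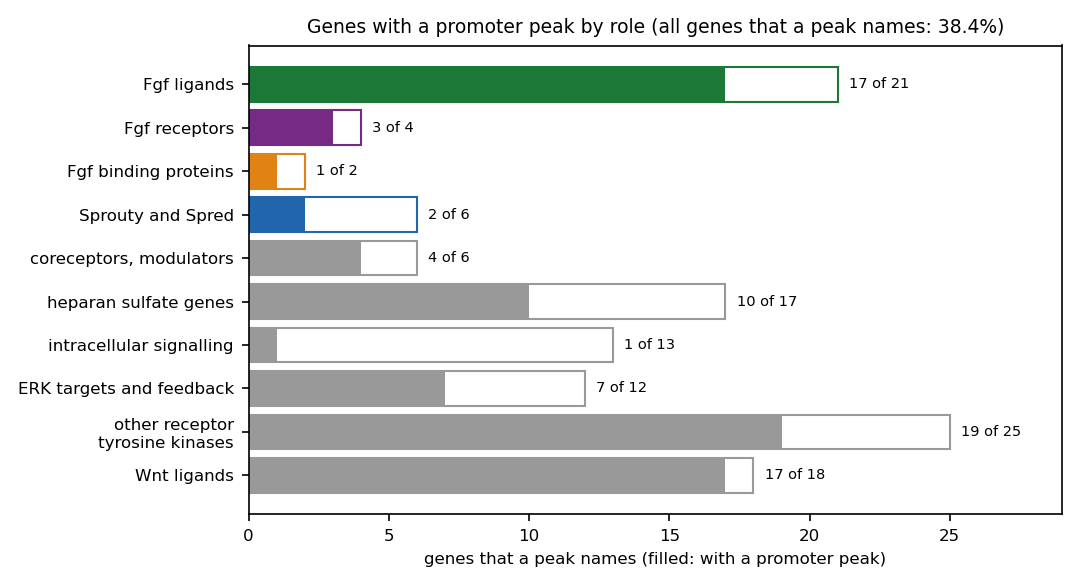
Genes that a peak names, by role in the pathway: the outlined bar is the number named by a peak and the filled part is the number with a promoter peak. Over all genes that a peak names, the filled share is 38.4%. Fgf ligands (17 of 21), Wnt ligands (17 of 18) and other receptor tyrosine kinases (19 of 25) are mostly filled. Intracellular signalling genes (1 of 13) are mostly empty, and Sprouty and Spred (2 of 6) lie near the share of all named genes.

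Markers of the cells of the nerve were looked up in the same list, although the mark does not measure expression. Among the Schwann cell markers, Mbp had a promoter peak of 77.4, Mal of 52.4 and Sox10 of 4.13, and S100b and Pmp22 had none. Other markers of that list are not named here, so these genes give no share of it. Promoter peaks were present at 4 of 7 fibroblast and perineurial markers (Pdgfra 561.3, Cldn1 55.1, Col1a1 4.95, Dcn 4.13). Col1a2, Col3a1 and Lum had none. Of the 5 endothelial markers, 2 had a promoter peak (Cldn5 132.4, Kdr 65.6), with none at Pecam1, Cdh5 and Tek. The counts were 1 of 5 for leukocyte markers (Cx3cr1 11.1; none at Ptprc, Csf1r and Cd68) and 2 of 4 for skeletal muscle markers (Acta1 403.1, Ckm 8.46; none at Myh4 and Ttn). Beside these small counts stand 17.2% of protein-coding genes and 38.4% of genes that a peak names, and no difference was tested. Of the named markers, Sox10, Col1a1, Dcn and Ckm had promoter scores under 10, a level seen in 27.3% of all genes with a promoter peak. Which cells of the nerve carried the marked Fgf genes was not tested.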

How the data were processed

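H3K27me3 chromatin and input of the sham-operated sciatic nerve were sequenced in 2 libraries each. Per the submitters' processing notes, CASAVA 1.8.2, Bowtie and HOMER were used. Other versions, the peak settings, how replicates were merged and whether the input was used were not given in the sources used here. Per the file headers, the peaks form a combined list with HOMER annotation on rn5. The authors deposited a score for each peak, with no scale named, and its position, nearest gene and distance from the peak's centre to the TSS. A peak counted as a promoter peak where that distance was at most the width divided by 2 plus 1000 bp. TSS positions and strands were computed from the peak centres and signed distances of each gene, and tested on simulated data. Of the named genes, 99.3% matched the GRCr8 gene table (23154 protein-coding genes), which served for names and neighbours. CpG were counted in RefSeq GRCr8 promoters of 300 bases. Counting intervals are exact Poisson 95% intervals. Every family gene is named with its widest promoter peak or its closest peak, coordinates are given for the 10 highest promoter peaks, and of each other list the 3 highest genes and the first 3 without a promoter peak are named, except for some genes that are not reported here. Genes and lists were chosen with earlier results of these data known. Alternatives changed the promoter reach, the score minimum, the annotation class, peak merging, peak assignment and the background. Python 3.11.15, pandas 2.3.3, numpy 2.4.6, scipy 1.17.1 and matplotlib 3.10.9 were used.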

Additional observations from a re-analysis of the deposited data

How the results depend on the processing

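The counts changed with the definition of a promoter peak. Where the peak had to contain the TSS, 11 of the 34 genes had a promoter peak, with 10 ligands, 0 receptors and 0 Sprouty or Spred genes, and 3 had a broad one; the medians were 138.2 in score and 3054 bp in width, and 6.15% of protein-coding genes and 13.8% of named genes had a promoter peak. Counting a peak only if its centre is classed promoter-TSS, 8 genes had one, with 5 ligands, 0 receptors and 0 broad peaks; the medians were 59.6 and 1563 bp, and the shares of all genes were 8.27% and 18.4%. Fgf5 then has no value, because its peak is centred in intron 1. A reach of 5000 bp gave 2 binding proteins, medians of 90.8 and 2781 bp, and shares of all genes of 27.7% and 61.9%. A minimum at the median score gave medians of 129.5 and 2919 bp, and a minimum at 9.9, the upper quartile, gave 133.85 and 2986.5 bp. Merging peaks within 5000 bp raised the medians to 231.15 and 13066 bp, the broad count to 19 and the Fgf5 peak to 498.72 and 16731 bp. With named genes as the background, the share over all genes was 38.4% in place of 17.2%. The other counts stayed within 1.5 times of the main ones. No paired analysis was possible because the list holds a single value per peak for both libraries, and leaving out a replicate was not run for the same reason.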
